A study of Mus musculus with 2 samples.

Results

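The potassium channel genes described here are the genes whose symbols begin with Kcn followed by a letter. They were chosen by symbol alone, and 99 of the 32285 features counted in both libraries met the rule. Of these, 68 had at least 50 UMIs (unique molecular identifiers, counted RNA molecules) over the nuclei of the named cell classes and are described. Another 30 had 1 to 49 UMIs, and Kcna7, a Kv1 gene, had 0. Just inside the limit stood Kcng4 with 54, Kcnh4 with 72 and Kcng1 with 74 UMIs, and just outside it Kcnh6 with 45, Kcnj16 with 44 and Kcnk6 with 36. The animals were male iNeuroD1GFP mice, labelled as 8 weeks old, and RNA of spinal cord nuclei was sequenced with the 10x Genomics 3′ kit. All mice were injured at postnatal day 60, were given tamoxifen (TAM) at 100 mg/kg/day on days 5 to 8 after the injury, and gave tissue on day 10. Each cord was divided into an injury core and a second region, called distal in the sample titles and peri-injury in the extraction protocol, and each region gave 1 library. The labels give 3 mice and do not say whether their tissue was pooled, nor which promoter drives the tamoxifen-inducible transgene. Both groups therefore carry the injury, the transgene and tamoxifen, and no uninjured or untreated group is analysed here. With 1 library a region, no difference has a replicate check, no p-value is given, and every interval below is a 95% interval for counting error only.

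Potassium channels let potassium ions cross the membrane and so set the resting potential, shape and end the action potential, and control how fast a neuron can fire. Pore-forming subunits fall into families: voltage-gated channels (Kv, EAG, ERG, ELK and KCNQ), channels opened by intracellular calcium or sodium, inward rectifiers, and two-pore domain channels that carry background current. Silent subunits form no channel alone and modify Kv2 channels, while auxiliary subunits (Kcnip, Kcnab, Kcnmb, Kcne) alter gating and transport to the membrane. In glia, inward rectifiers and two-pore channels keep the membrane near the potassium equilibrium and take part in clearing the potassium that active neurons release.

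What most of these proteins share is the selectivity filter of the pore, a short stretch in which a threonine and a hydrophobic residue are followed by glycine, tyrosine or phenylalanine, and glycine. The coding form of that stretch was searched in frame, on the coding strand only, as ACNNTNGGNTACGGN, ACNNTNGGNTATGGN, ACNNTNGGNTTCGGN or ACNNTNGGNTTTGGN in the longest coding sequence of each gene (GENCODE M21 on GRCm38). It was found in 64 of the 94 members with a coding sequence (68.1%) and in 114 of 21578 coding genes in all (0.528%). All 17 Kv1 to Kv4 genes, all 10 silent subunits and all 5 KCNQ genes held it, as did 14 of 15 inward rectifiers and 12 of 14 two-pore genes, 11 of which held it at 2 places, 1 for each pore domain. It was present in 5 of 8 calcium- or sodium-activated genes, in 1 of 8 EAG, ERG and ELK genes, and in 0 of 16 auxiliary genes. A gene with no match lacks only these letters in this reading frame. The 60 coding bases around the match are shown for 4 members on which results turn, from 5′ to 3′, with the match in capitals. They are Kcnk13 and Kcna1, which were high in oligodendrocytes, and Kcnd2 and Kcnb2, which differed between neuron classes.
Kcnk13 first match: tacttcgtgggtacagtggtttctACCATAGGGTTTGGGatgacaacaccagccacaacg
Kcnk13 second match: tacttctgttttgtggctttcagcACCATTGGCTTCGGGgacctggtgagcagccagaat
Kcna1: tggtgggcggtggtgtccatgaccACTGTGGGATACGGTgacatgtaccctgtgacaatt
Kcnd2: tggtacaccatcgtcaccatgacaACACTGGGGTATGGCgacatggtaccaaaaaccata
Kcnb2: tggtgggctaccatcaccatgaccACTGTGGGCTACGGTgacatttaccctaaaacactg
In GRCm38 these windows span chr12:99966250-100061030 (+ strand) and chr12:100061352-100061411 (+ strand) for Kcnk13, chr6:126642207-126642266 (- strand) for Kcna1, chr6:21217382-21714162 (+ strand) for Kcnd2 and chr1:15710022-15710081 (+ strand) for Kcnb2. All are coding exon sequence. The windows of Kcna1, Kcnb2 and the second of Kcnk13 lie in 1 exon, and the others cross an intron. Kcna1 and Kcnb2 carried the same base at 46 of 60 positions, and the paired windows of Kcnk13 at 23.

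Depth was 30469263 UMIs over 16362 barcodes in the core library (median 1303 per barcode) and 19049572 over 7452 in the distal library (median 1743). They had 38 barcode sequences in common. Nuclei were clustered without the Kcn genes, and clusters were named from marker genes, so each class name below means a marker-defined, "-like" group. A cluster in which no other class passed its marker limit counted as neuronal. The distal library gave 1126 excitatory, 316 inhibitory and 62 CSF-contacting neurons, 643 astrocytes, 1763 oligodendrocytes and 372 oligodendrocyte progenitors. The core library gave 2828, 1422 and 39 neurons of these kinds and 74 astrocytes, but only 10 oligodendrocytes and 18 progenitors, so the latter were not compared. Neurons that clusters did not resolve into these kinds numbered 461 in the distal and 4634 in the core library. They were counted among all neurons. Levels below are in CPM, UMIs scaled to a class total of 1000000, with the counting interval in brackets. Excitatory and inhibitory classes were defined from transmitter genes, so a difference in these genes follows from the rule and cannot test the split. The separation was partial. Slc17a6, a vesicular glutamate transporter gene, stood at 77.4 CPM in core excitatory and 22.1 in core inhibitory neurons. Excitatory clusters took 47.4% to 78.1% of their transmitter marker UMIs from excitatory genes. Another 6107 core nuclei were background-like and were left out. Their counts varied little around the mean of their own cluster, with a dispersion of 1.09 against a limit of 1.15. The largest unresolved neuron cluster, which was kept, stood at 1.20. In the background-like nuclei the 10 neuron markers summed to 0.994 of their level in core neurons. Their share of UMIs from Kcn genes was 1.87%.

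Kcn genes took 1.84% of all UMIs in the core library and 1.21% in the distal library. By class, their share was 1.99% in excitatory, 2.25% in inhibitory and 2.17% in CSF-contacting neurons of the distal library. Without Kcnip4 and Kcnq1ot1, a noncoding RNA antisense to Kcnq1, the shares were 1.25%, 1.54% and 1.12%, so that CSF-contacting neurons stood below excitatory neurons. Glia of the same library stood lower, with 0.946% in astrocytes, 0.621% in oligodendrocytes and 1.12% in progenitors. In the core, excitatory neurons were at 2.03%, inhibitory neurons at 2.19% and astrocytes at 1.55%.

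A few genes made up most of this signal. In core excitatory neurons the leading member was Kcnip4, an auxiliary subunit of Kv4 channels, at 6003 (5938 to 6068) CPM, followed by Kcnd2, a Kv4 pore subunit of the A-type current, at 3057 (3011 to 3104), and Kcnma1, the pore of the large-conductance calcium-activated (BK) channel, at 1192 (1163 to 1221). With Kcnb2 at 838, Kcnc2 at 825 and Kcnq3 at 813, these 6 genes held 62.7% of the Kcn UMIs. The same 6 genes led in core inhibitory neurons, with 65.4% of the UMIs and Kcnip4 at 5848. In distal CSF-contacting neurons the leading 6 were Kcnip4 at 9869 (9438 to 10314), Kcnq3 at 2875 (2645 to 3119.6), Kcnh7 at 1415, Kcnmb2 at 1125, Kcnd2 at 1095 and Kcnb2 at 649.9, with 78.4% of the Kcn UMIs. Oligodendrocytes ranked differently: Kcnq3, a subunit of the M-type KCNQ channel, came first at 1617 (1576 to 1659) and Kcnip4 second at 908. In progenitors Kcnd2 came first at 2720.3 (2604 to 2840.4). Astrocytes were led by Kcnip4 at 1806 (1735 to 1879), Kcnq3 at 1223 and Kcnd2 at 1183.

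UMI levels were not corrected for gene length. Spans of the 68 genes ran from 5.37 kb to 1135 kb (Kcnip4), with a median of 53.5 kb, and Spearman's rho between span and level in distal neurons was 0.770 across the 68 genes, which are not independent replicates. Per 100 kb of span, ranked among members with at least 50 UMIs in the class, the order changed. Kcna1, the Kv1 subunit that opens near threshold and sits at the juxtaparanodes of myelinated axons, then led in core excitatory neurons at 877 CPM per 100 kb, against 529 for Kcnip4 and 594 for Kcnd2. It also led in core inhibitory neurons at 960.4 and in distal astrocytes, oligodendrocytes and progenitors at 1612, 2433 and 1810.1 per 100 kb. In distal CSF-contacting neurons only 9 members had 50 UMIs, and among these Kcnq3 led at 957 per 100 kb. Kcna1 had too few UMIs there to be ranked. Position bears on other genes as well. Some other gene model, coding or not, overlaps 40 of the 68. For Kcnip4 there are 24 such models on its own strand and 7 on the other. Of the 68, 10 overlap another coding gene, 8 of them only on the opposite strand (among them Kcnj13 with Gigyf2 and Kcnab2 with Nphp4), and Kcnip1 overlaps Kcnmb1 on the opposite strand and another coding gene on its own. Whether counting used the strand is not known from the files or labels. Kcnj9 and Kcnj10 lie 11.9 kb apart on chromosome 1, and Kcna1 and Kcna6 lie 61.9 kb apart on chromosome 6.

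**Figure D1:**
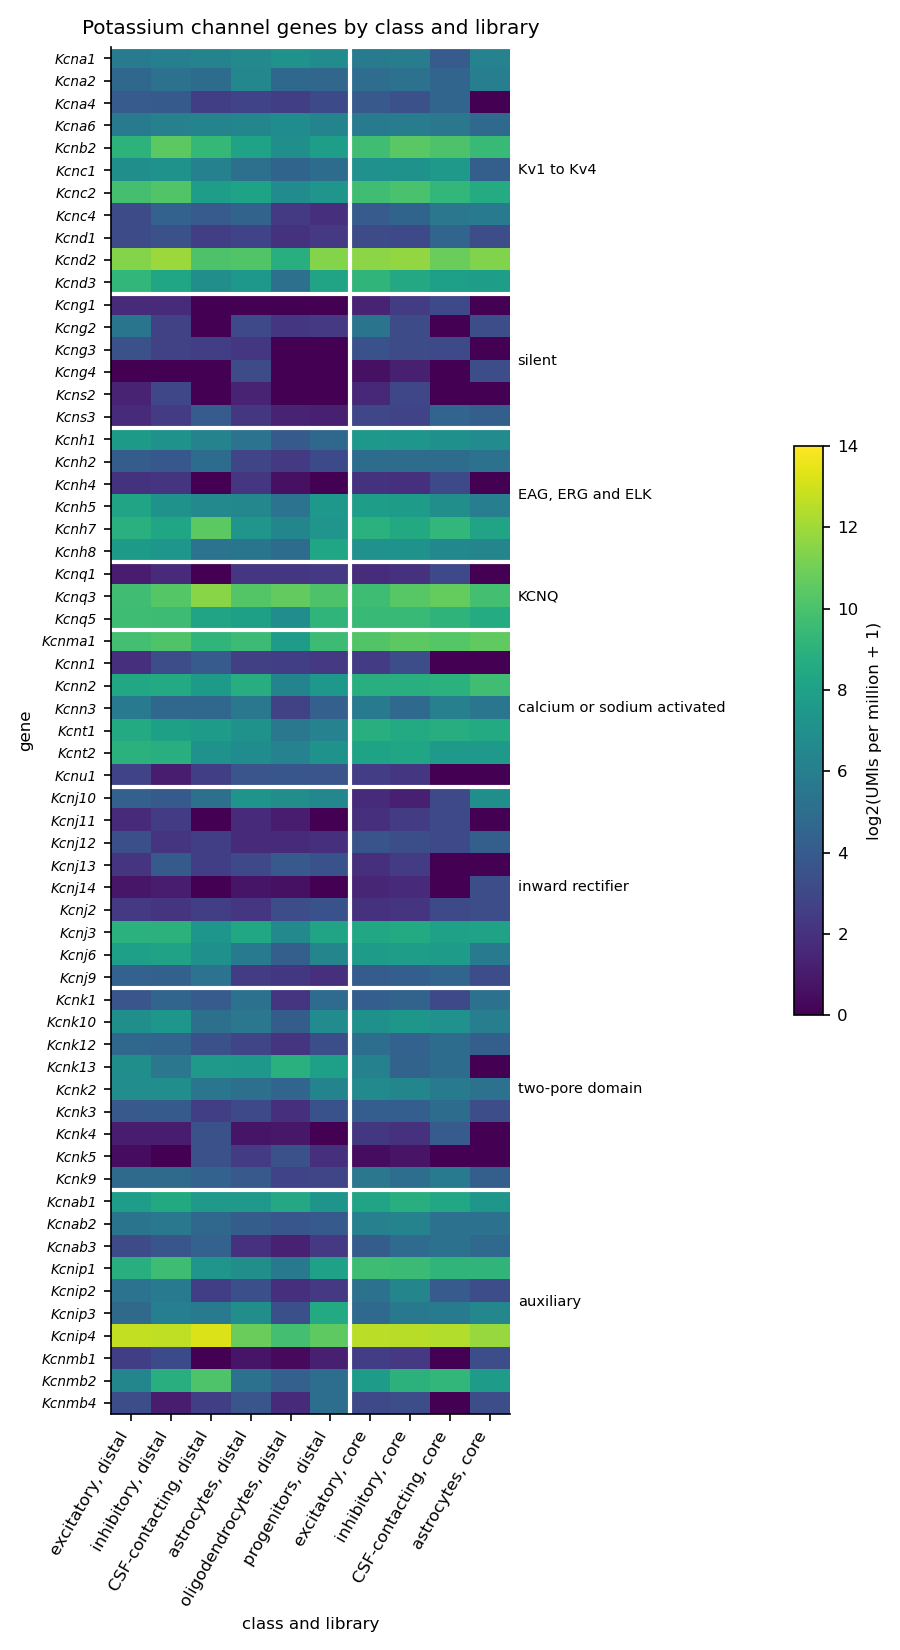
Levels of the channel and auxiliary genes reported here (rows, grouped by role) in each class and library (columns), as log2 of CPM plus 1, on a colour scale from 0 to 14. Kcnip4 and Kcnd2 are the brightest rows in the excitatory and inhibitory neuron columns. Most rows are darker in distal oligodendrocytes than in neurons, with Kcnj10, Kcnk13, Kcnq3 and Kcna1 among the exceptions.

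The first comparison asks which potassium channel genes differed between excitatory and inhibitory neurons of the same library. A gene was compared where both groups together had at least 50 UMIs, and it was counted as higher or lower where the ratio reached 1.5-fold and its interval left out 1. In the distal library 7 of 43 members were higher in excitatory neurons, against 7.29% of all genes compared, and 8 were lower, against 6.89%. In the core 5 of 52 were higher (5.13% of all genes) and 8 lower (4.24%). Median log2 ratios of the members were -0.10 in the distal and -0.03 in the core library, beside -0.01 and -0.00 over all genes. The same 4 genes, Kcng2, Kcnk13, Kcnn3 and Kcnd3, were higher in both libraries (57.1% of the distal and 80.0% of the core list), and 5 genes, Kcnmb2, Kcnb2, Kcnip3, Kcnab1 and Kcnq3, were lower in both (62.5% of each list). No member was called in opposite directions among the 42 compared in both. Clusters were formed over both libraries together. The shares of all genes called in both libraries or in opposite directions were not counted. The member calls depend on how nuclei were classed: with nuclei classed one by one from their own markers, 7 members were called in the distal library and 3 in the core. The only lower call in the core was then Kcnip2 at 0.637, so the 5 genes lower in both libraries lost their core call. Under that setting Kcnd3, Kcnk13 and Kcnmb2 kept their call in the distal library at 2.06, 2.15 and 0.511, and Kcng2 in the core at 2.03. In the core Kcnd3, Kcnk13 and Kcnmb2 kept their direction at 1.48, 1.44 and 0.673 but not the call, as did Kcnn3 at 1.57 and 1.40 and Kcnip3 at 0.863 and 0.958, distal then core.

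Among voltage-gated pore subunits, Kcnd3, a Kv4 subunit that carries A-type current, was at 611 (582 to 642) in distal excitatory, 299 (264 to 337) in distal inhibitory, 581 (561 to 602) in core excitatory and 344 (323 to 366) in core inhibitory neurons. The excitatory level was higher in both libraries, and the ratios were 2.05 (1.80 to 2.34) and 1.69 (1.57 to 1.81). Its close relative Kcnd2 stood at 2662 and 3742 in the distal and 3057 and 3349 in the core library, ratios of 0.711 (0.683 to 0.742) and 0.913 (0.890 to 0.936) that did not reach 1.5-fold. Kcnb2, a Kv2 delayed rectifier subunit, went the other way, at 529 (502 to 558) in distal excitatory, 1402 (1325 to 1482) in distal inhibitory, 838 (814 to 863) in core excitatory and 1391 (1349 to 1433) in core inhibitory neurons. Its ratios were 0.377 (0.349 to 0.408) and 0.603 (0.578 to 0.629), and with nuclei classed one by one the distal ratio was 0.670 and not called. The core call was lost under that setting too. Of the Kv3 genes, which allow fast repolarisation, Kcnc1 had ratios of 0.906 distal and 0.923 core, and Kcnc2 of 0.789 and 0.816. Neither reached 1.5-fold. Kcna2, the usual partner of Kcna1 in axonal Kv1 channels, was lower in excitatory neurons of the distal library at 0.634 (0.412 to 0.993) and was not called in the core at 0.821 (0.644 to 1.05). Kcna1 itself had ratios of 0.811 (0.591 to 1.13) and 0.913 (0.753 to 1.11).

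Among silent subunits Kcng2, which modifies Kv2 channels, had 111 UMIs in distal excitatory and 5 in distal inhibitory neurons, or 42.8 (35.2 to 51.6) and 5.63 (1.83 to 13.2) CPM. In the core it was at 41.3 (36.0 to 47.0) and 8.69 (5.68 to 12.7). The ratios of 7.60 (3.16 to 23.9) and 4.75 (3.15 to 7.42) were the highest of the members in both libraries. With nuclei classed one by one they were 5.83 (2.31 to 17.5) and 2.03 (1.32 to 3.09). Too few distal UMIs then remained for a call. In the core its range was 25.8 to 53.0 CPM over 6 clusters of excitatory neurons and 5.49 to 18.0 CPM over 4 clusters of inhibitory neurons, and these did not overlap. In the distal library the clusters did overlap, at 6.77 to 90.9 CPM over 7 clusters and 0 to 28.9 CPM over 4 clusters. For every other member called between these classes, among them Kcnd3, Kcnb2, Kcnq3 and Kcnn3, cluster ranges overlapped in both libraries. The share of all genes whose cluster ranges do not overlap was not counted. The 5 silent genes other than Kcng2 were low, and 2 of them had enough UMIs to be compared in the core, where neither was called.

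Of the KCNQ genes, whose channels carry the M-current that restrains repeated firing, Kcnq3 was lower in excitatory neurons. It was at 832 (797 to 868) in distal excitatory, 1263 (1190.5 to 1339.5) in distal inhibitory, 813 (789 to 838) in core excitatory and 1306 (1266 to 1348) in core inhibitory neurons, with ratios of 0.659 (0.612 to 0.708) and 0.623 (0.596 to 0.650). With nuclei classed one by one the core call of Kcnq3 was lost. Kcnq5, a subunit that also forms M-type channels, was closer to even, with ratios of 1.02 distal and 1.05 core. Of the EAG, ERG and ELK genes, Kcnh5 (EAG) was higher in distal excitatory neurons at 1.95 (1.61 to 2.36) and Kcnh7 (ERG) at 1.53 (1.34 to 1.76), but in the core their ratios were 1.14 (1.03 to 1.26) and 1.35 (1.26 to 1.45). Kcnh1, another EAG gene, was at 1.40 and 1.06.

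Calcium-activated channels differed within the family. Kcnn3, a small-conductance (SK) subunit whose channels produce an after-hyperpolarisation when calcium enters, was at 53.2 (44.7 to 62.9) in distal excitatory, 24.8 (15.5 to 37.5) in distal inhibitory, 55.3 (49.2 to 61.9) in core excitatory and 27.1 (21.5 to 33.7) in core inhibitory neurons. Its ratios were 2.15 (1.36 to 3.54) and 2.04 (1.59 to 2.64), and those of the SK gene Kcnn2 were 0.894 (0.787 to 1.02) and 0.970 (0.907 to 1.04). In the core a further SK gene, Kcnn1, was lower in excitatory neurons at 0.490 (0.270 to 0.882), a call lost with nuclei classed one by one (0.591). Kcnma1 was near even at 0.777 and 0.842. The sodium-activated gene Kcnt1 reached 1.54 (1.33 to 1.79) in the distal library and 1.20 (1.12 to 1.29) in the core, while Kcnt2 was at 1.09 and 0.874. No inward rectifier was called in either library: among the 4 compared in each, the G-protein-gated Kcnj3 was at 0.971 and 0.872 and Kcnj6 at 0.910 and 0.981.

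Two-pore genes gave the second highest ratio. Kcnk13, a halothane-inhibited two-pore channel, was at 124 (111 to 138) in distal excitatory, 46.2 (33.2 to 62.7) in distal inhibitory, 70.0 (63.1 to 77.4) in core excitatory and 20.7 (15.9 to 26.6) in core inhibitory neurons. Excitatory neurons were higher in both libraries, with ratios of 2.68 (1.93 to 3.81) and 3.38 (2.58 to 4.49). Since Kcnk13 was highest in oligodendrocytes (below), the oligodendrocyte markers in the same neurons are given. In distal excitatory neurons the markers summed to 0.149 of their level in distal oligodendrocytes (range over 10 markers 0.0986 to 0.353) and Kcnk13 stood at 0.263 of its own level there. In core excitatory neurons the markers stood at 0.0194 (0.01000 to 0.0987) and Kcnk13 at 0.149, above each of the 10 markers. In core inhibitory neurons it stood at 0.0441, within the markers' range of 0.0103 to 0.0831. The other two-pore genes were closer to even or called in 1 library only. Kcnk1 was lower in distal excitatory neurons at 0.530 (0.293 to 0.982) and stood at 0.831 (0.598 to 1.16) in the core, Kcnk12 was higher in the core at 1.62 (1.20 to 2.20) but not with nuclei classed one by one (1.06) and stood at 1.15 (0.687 to 1.99) in the distal library, and Kcnk2 and Kcnk10, which respond to stretch and lipids, were at 1.03 and 0.769 distal and 1.20 and 0.780 core.

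Of the auxiliary genes, 0 of 7 were higher and 4 lower in distal excitatory neurons (7.29% and 6.89% of all genes), and 0 of 9 were higher and 5 lower in the core (5.13% and 4.24%). With nuclei classed one by one, Kcnip2 at 0.637 was the only member called lower in the core. The core calls of Kcnmb2, Kcnip3, Kcnab1 and Kcnab3 were lost, as were the distal calls of Kcnip3 and Kcnip1. The lowest ratio of any member in both libraries belonged to Kcnmb2, a beta subunit that makes BK channels inactivate, at 84.5 (73.7 to 96.4) in distal excitatory, 437 (395 to 483) in distal inhibitory, 209.8 (198 to 222) in core excitatory and 508 (483 to 534) in core inhibitory neurons. Its ratios were 0.193 (0.163 to 0.229) and 0.413 (0.382 to 0.446), against 0.511 and 0.673 classed one by one, the latter not called. Clusters overlapped: 16.1 to 627 CPM over 7 clusters of distal excitatory neurons and 215 to 738 CPM over 4 clusters of distal inhibitory neurons. Kcnip3, a Kv4 partner also known as a calcium-binding repressor of transcription, had ratios of 0.426 (0.297 to 0.615) and 0.521 (0.412 to 0.660), neither called one by one (0.863 and 0.958), and Kcnab1, a Kv1 beta subunit, of 0.611 (0.532 to 0.703) and 0.648 (0.602 to 0.698). Kcnip1 was lower in distal excitatory neurons at 0.587 (0.534 to 0.645), but at 0.982 and not called one by one, and stood at 1.07 (1.02 to 1.13) in the core. Kcnip2 was at 0.713 (0.501 to 1.03) distal and 0.463 (0.383 to 0.560) core. Kcnab3 was lower in the core at 0.564 (0.415 to 0.766), but at 1.01 one by one. The most abundant member, Kcnip4, was at 1.05 and 1.03.

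**Figure D2:**
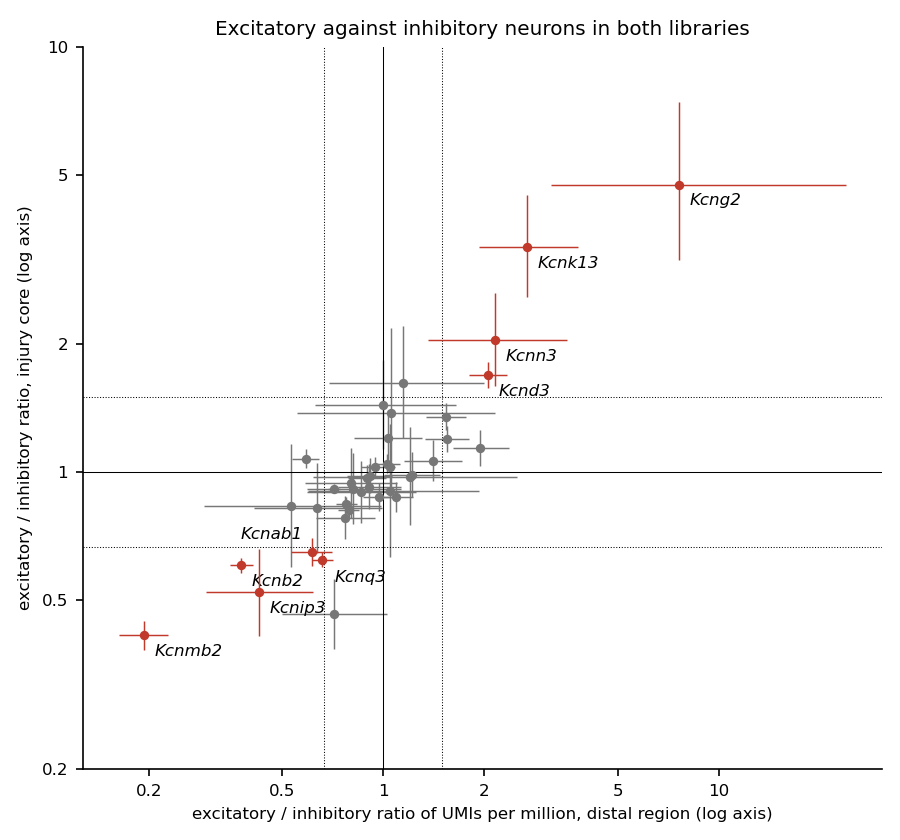
Excitatory over inhibitory ratio of CPM for each member reported here and compared in both libraries, with the distal region on the horizontal and the injury core on the vertical axis (both log axes); bars are 95% counting intervals, dotted lines mark 1.5-fold, and the 9 genes called in both libraries are red and named. The 9 lie in 2 corners, with Kcng2 farthest up and to the right and Kcnmb2 farthest down and to the left.

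CSF-contacting neurons line the central canal, sense the pH and flow of the cerebrospinal fluid, and are marked by the channel gene Pkd2l1. They formed 1 cluster with 62 nuclei in the distal and 39 in the core library, led by Pkd1l2, Myo3b and Pkd2l1, and were compared with all other neurons of the same library. In the distal library 8 of 49 members were higher in them (9.11% of all genes) and 17 lower (6.11%), with a median log2 ratio of -0.46 over the members and 0.15 over all genes. In the core 4 of 62 were higher (3.21%) and 3 lower (0.88%), with medians of 0.09 and 0.19. Kcnmb2 and Kcnq3 were among the members higher in both libraries, and Kcnd2 was lower in both (5.88% of the distal and 33.3% of the core list). Here too the share of all genes called in both libraries was not counted.

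Kcnq3 reached 2875 (2645 to 3119.6) CPM in the distal and 1677 (1464 to 1912) in the core CSF-contacting cluster, against 832 and 1263 in distal and 813 and 1306 in core excitatory and inhibitory neurons. It was higher in this cluster than in either class in both libraries, and its ratios to all other neurons were 3.39 (3.10 to 3.70) and 2.02 (1.76 to 2.31). Kcnq5 lay on the other side in the distal library at 0.412 (0.312 to 0.535) and at 0.904 (0.707 to 1.14) in the core. The BK beta subunit Kcnmb2 was at 1125 (983 to 1282) and 624 (497 to 774), ratios of 6.17 (5.31 to 7.13) and 2.26 (1.79 to 2.80). The BK pore gene Kcnma1, in contrast, was lower in the distal library at 0.563 (0.463 to 0.679) and stood at 0.955 (0.817 to 1.11) in the core.

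Kv4 pore genes were lower than in other neurons, Kcnd2 in both libraries and Kcnd3 in the distal one. Kcnd2 was at 1095 (955 to 1249.9) CPM in distal and 1782 (1562 to 2024) in core CSF-contacting neurons, ratios of 0.406 (0.353 to 0.464) and 0.657 (0.576 to 0.747). The core call of Kcnd2 was lost at Leiden resolution 2.0, where the ratio was 0.878. It was also lost, just short of the fold, one by one (0.672) and after thinning to 1000 UMIs per nucleus (0.667). Kcnd3 was at 0.309 (0.198 to 0.461) of the other neurons in the distal library and 0.757 (0.517 to 1.07) in the core. Their auxiliary partner Kcnip4 was nevertheless higher in the distal library, at 1.74 (1.66 to 1.82), and near even in the core at 1.01 (0.938 to 1.09). Kcnip2 and Kcnip1, which also bind Kv4 channels, were lower in the distal library, Kcnip2 at 0.174 (0.00438 to 0.983) and Kcnip1 at 0.324 (0.220 to 0.461), with core values of 0.462 (0.0558 to 1.68) and 0.904 (0.713 to 1.13). The distal Kcnip2 value rests on 1 UMI, and its call was lost at Leiden resolution 2.0 (0.179). Kcng2 had 0 UMIs in the distal CSF-contacting cluster, which allows up to 14.998 CPM, against 125 UMIs in the other distal neurons. At 22.6 CPM the latter lay above that limit.

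The remaining distal calls were not met in the core. Kcnh7, an ERG gene, was at 1415 (1255 to 1589.7) CPM in the distal cluster, a ratio of 3.29 (2.90 to 3.72), and at 617 (490.4 to 765) in the core, a ratio of 1.38 (1.10 to 1.72). Kcnj9, a G-protein-gated inward rectifier gene, reached 2.43 (1.02 to 5.00) on 8 UMIs, and without the nucleus that held 2 of them the ratio was 1.88, interval 0.671 to 4.25 and no longer called. Kcnk13 was at 2.41 (1.68 to 3.38) in the distal cluster, in which oligodendrocyte markers summed to 0.323 of their level in oligodendrocytes and Kcnk13 to 0.393; their part in the result was not tested. Lower in the distal cluster were Kcnk10 at 0.254 (0.102 to 0.526), Kcnc2 at 0.280 (0.204 to 0.376) and Kcnh8, an ELK gene, at 0.284 (0.122 to 0.562), the last not called after thinning to 1000 UMIs per nucleus (0.447). A further 8 (Kcnj3, Kcnt2, Kcnh1, Kcnh5, Kcnk2, Kcnn2, Kcnc1 and the already given Kcnma1) had ratios from 0.343 to 0.578. In the core the calls outside the shared ones were Kcnc4, a Kv3 gene, at 2.80 (1.02 to 6.15), which was not called without its top nucleus (2.19, interval 0.594 to 5.67), and the lower Kcna1 at 0.193 (0.0234 to 0.699) and Kcnab2 at 0.391 (0.127 to 0.915). These calls were lost without the unresolved neurons, at 2.58, 0.277 and 0.528, and at Leiden resolution 2.0 Kcnc4 stood at 1.64 and Kcna1 at 0.446. Kcna1 was not lower in the distal cluster (0.869 (0.483 to 1.45)). With 39 nuclei the core intervals are wide, and whether the libraries differ from each other in these ratios was not tested.

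**Figure D3:**
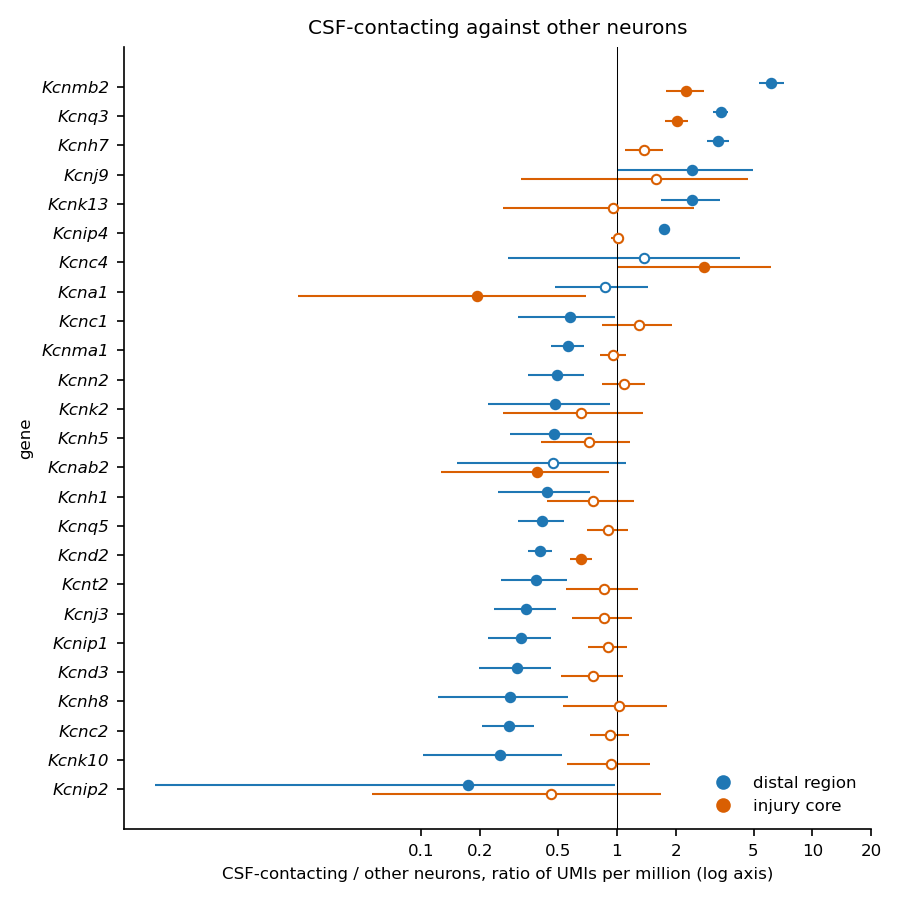
Ratio of CPM in CSF-contacting over other neurons (horizontal log axis) for members reported here that were called in either library and detected in the distal cluster (rows), with blue points for the distal region and orange points for the injury core; bars are 95% counting intervals, and filled points were called. Kcnmb2 and Kcnq3 have filled points to the right in both libraries, and Kcnd2 has filled points to the left in both.

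Glia were compared with all neurons of the same library. Nuclei of 1 class can also carry RNA of others, so the neuronal marker level in each glial class is given as a background. The 10 neuron markers summed to 0.330 of the neuronal level in distal astrocytes (range 0.262 to 0.722). They summed to 0.174 in oligodendrocytes (0.0903 to 0.231) and 0.372 in progenitors (0.132 to 0.472). In core astrocytes the sum was 0.689 (0.585 to 1.0033). A member was above background where its glia-to-neuron interval lay over the highest of the 10 markers. That held for 14 of 52 members in distal astrocytes, 16 of 55 in oligodendrocytes, 21 of 51 in progenitors and 6 of 64 in core astrocytes. The intervals of 24, 26, 25 and 10 members, in the same order, lay above the summed marker ratio. Neither count was made over all genes, so these counts do not set the Kcn genes apart from other genes. Levels within the range of the markers cannot be told apart from neuronal RNA of other nuclei. Whether the marker RNA was free, came from doublets or was made in the glia was not tested. In astrocytes of both libraries the highest marker was Gria1.

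In distal astrocytes 7 of 52 members were higher than in neurons (23.6% of all genes) and 31 lower (16.9%). In oligodendrocytes 9 of 55 were higher (24.5%) and 43 lower (27.4%), and in progenitors 5 of 51 were higher (15.5%) and 27 lower (17.1%). Median log2 ratios of the members were -1.17, -2.24 and -0.84, against 0.16, 0.06 and 0.03 over all genes. In core astrocytes 6 of 64 were higher (6.89%) and 10 lower (2.78%), with medians of -0.12 and 0.29. All 5 EAG, ERG and ELK genes compared in distal astrocytes and oligodendrocytes were lower than in neurons. Of the Kv1 to Kv4 genes, 7 of 13 were lower in distal astrocytes, 11 of 13 in oligodendrocytes and 5 of 12 in progenitors.

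Kcnj10, the inward rectifier that carries most glial potassium conductance, was the member with the highest ratio in astrocytes and oligodendrocytes. It was at 151 (131 to 173) CPM in distal astrocytes, 121 (110.3 to 133) in oligodendrocytes and 91.2 (71.0 to 115) in progenitors, against 18.5 (13.7 to 24.5) in excitatory and 14.7 (7.80 to 25.1) in inhibitory neurons. Core astrocytes had 14 UMIs in 12 of 74 nuclei, or 126 (68.8 to 211) CPM, against 2.21 and 1.34 in core neurons. The intervals of the astrocyte levels overlapped between libraries. The ratios to neurons were 9.09 (7.09 to 11.7) for distal astrocytes, 7.32 (5.85 to 9.24) for oligodendrocytes, 5.50 (3.98 to 7.58) for progenitors and 57.5 (29.1 to 107) for core astrocytes. The core value was 38.1 at Leiden resolution 2.0 and 28.8 with nuclei classed one by one, where too few UMIs remained for a call. In distal neurons Kcnj10 stood at 0.137 of its oligodendrocyte level where oligodendrocyte markers stood at 0.127, and in core neurons at 0.0180 where the markers also stood at 0.0180. Set against distal astrocytes, Kcnj10 stood at 0.110 in distal neurons, where astrocyte markers stood at 0.180. In core neurons the values were 0.0145 and 0.219. The part of free glial RNA in the neuronal Kcnj10 values was not tested. Kcnj16, its partner in heteromeric glial channels, had only 44 UMIs in the named classes, 10 of them in distal astrocytes, 4 in core astrocytes and 12 in progenitors, at 7.42 (3.56 to 13.7), 35.9 (9.79 to 92.0) and 15.9 (8.20 to 27.7) CPM.

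Among glia Kcnk13 was highest in oligodendrocytes. It was at 470.3 (448 to 493) CPM in them, with a UMI in 887 of 1763 nuclei, at 242 (208 to 279.6) in progenitors and at 174 (152 to 197) in distal astrocytes, against 80.5 in all distal neurons. The ratios to neurons were 5.85 (5.27 to 6.49), 3.01 (2.52 to 3.58) and 2.16 (1.84 to 2.53). In distal astrocytes Kcnk13 stood at 0.369 of its oligodendrocyte level and the oligodendrocyte markers at 0.422. In progenitors the values were 0.514 and 0.398. Core astrocytes, in which those markers were at 0.0419, had 0 Kcnk13 UMIs, which allows up to 27.0 CPM. The astrocyte call also changed with clustering: at Leiden resolution 2.0 the distal ratio was 0.922, and with nuclei classed one by one it was 1.49 and not called. The progenitor ratio was 1.54 at that resolution.

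Oligodendrocytes were higher than neurons in 7 more members. Kcnq3 was at 1617 (1576 to 1659) against 919 (894 to 944) CPM in neurons, a ratio of 1.76 (1.69 to 1.83). Kcna1 was at 146 (133 to 159) against 85.9 (78.4 to 93.8), a ratio of 1.70 (1.4973 to 1.92), and its neighbour Kcna6 was at 1.89 (1.64 to 2.19) times the neuronal level. At lower levels stood Kcnrg, which encodes a soluble protein that restrains Kv assembly, with a ratio of 3.40 (2.19 to 5.40), Kcnu1, the pore gene of a sperm channel, at 2.81 (1.69 to 4.80), the inward rectifier Kcnj2 at 2.44 (1.36 to 4.45) and Kcnj13 at 1.70 (1.12 to 2.57). After thinning to 1000 UMIs per nucleus Kcnrg stood at 1.83, Kcnu1 at 2.09 and Kcnj2 at 2.32, none of them called. Kcnj13 overlaps Gigyf2 on the opposite strand. The lowest oligodendrocyte ratios belonged to Kcnab3 at 0.0740 (0.0236 to 0.178), Kcnmb2 at 0.0868 (0.0669 to 0.111), Kcnh1 at 0.0873 (0.0647 to 0.115), Kcnd3 at 0.0913 (0.0756 to 0.110) and Kcnj6 at 0.0929 (0.0709 to 0.120). The interval of each of the 5 held 0.0903, the lowest of the neuron marker ratios. At Leiden resolution 2.0 they were higher, Kcnab3 at 0.263, Kcnmb2 at 0.349, Kcnh1 at 0.233, Kcnd3 at 0.199 and Kcnj6 at 0.208, all still called lower.

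Progenitors stood out in Kcnip3, at 371 (329 to 417) CPM against 29.5 (25.2 to 34.3) in distal neurons, 122 (104 to 142) in distal astrocytes and 9.77 (6.80 to 13.6) in oligodendrocytes. The order was progenitors, astrocytes, neurons and oligodendrocytes, with no overlap of intervals between neighbours. The ratio to neurons was 12.6 (10.4 to 15.3) in progenitors, 4.13 (3.31 to 5.15) in distal and 3.55 (1.69 to 6.58) in core astrocytes, the last not called at 1.71 with nuclei classed one by one. Kcnmb4, the BK beta subunit typical of brain, was at 4.54 (2.62 to 7.72) on 24 progenitor UMIs, and Kcnh8 at 2.27 (1.95 to 2.63), with 312 (273 to 354) CPM in progenitors. Kcnd2 was not called in progenitors at 1.03 (0.982 to 1.08), but this ratio lay above every neuron marker. Astrocytes were also higher than neurons in Kcnc4 at 1.89 (1.17 to 2.99) distal and 3.30 (1.20 to 7.27) core, Kcna2 at 2.30 (1.82 to 2.89) distal, and Kcnk1, a two-pore gene reported in astrocytes, at 2.01 (1.40 to 2.83) distal. In the core Kcna2 and Kcnk1 stood at 1.49 (0.598 to 3.08) and 1.46 (0.397 to 3.77). In core astrocytes Kcnc4 was not called with nuclei classed one by one (2.09). That call rested on 6 UMIs and was lost without 1 nucleus (2.79, interval 0.900 to 6.58). Core astrocytes were also higher in Kcnn2 at 1.84 (1.48 to 2.25).

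Set against oligodendrocytes, 26 of 40 members were higher in astrocytes (20.9% of all genes) and 3 lower (12.3%), and 22 of 38 were higher (15.2%) and 3 lower (15.6%) in progenitors. Neuronal markers were also higher in astrocytes and progenitors than in oligodendrocytes, as the background values above show, and their part in these counts was not tested. Among the highest ratios in astrocytes, all of genes above the neuron markers when set against neurons, were Kcnip3 at 12.5 (8.61 to 18.5), Kcnk1 at 11.1 (5.82 to 22.9), Kcnn3 at 8.51 (5.08 to 14.8) and Kcnn2 at 5.39 (4.66 to 6.23). In progenitors the 5 highest, again all above those markers, were Kcnip3 at 38.0 (26.7 to 55.7), Kcnh8 at 10.4 (8.28 to 13.3), Kcnd3 at 8.25 (6.58 to 10.4), Kcnk10 at 6.39 (4.52 to 9.08) and Kcnd2 at 6.29 (5.88 to 6.72). At Leiden resolution 2.0 Kcnh8 stood at 6.51, Kcnd3 at 3.75, Kcnk10 at 2.63 and Kcnd2 at 3.09, all still called. Lower than in oligodendrocytes were Kcnk13, at 0.369 (0.321 to 0.424) in astrocytes and 0.514 (0.439 to 0.599) in progenitors (0.191 and 0.319 at that resolution), and Kcnab1, at 0.531 (0.461 to 0.608) and 0.436 (0.357 to 0.529). Kcna1 was lower in astrocytes at 0.662 (0.542 to 0.804), with 0.237 at resolution 2.0 and 0.434 one by one, and Kcnq3 in progenitors at 0.662 (0.614 to 0.713).

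**Figure D4:**
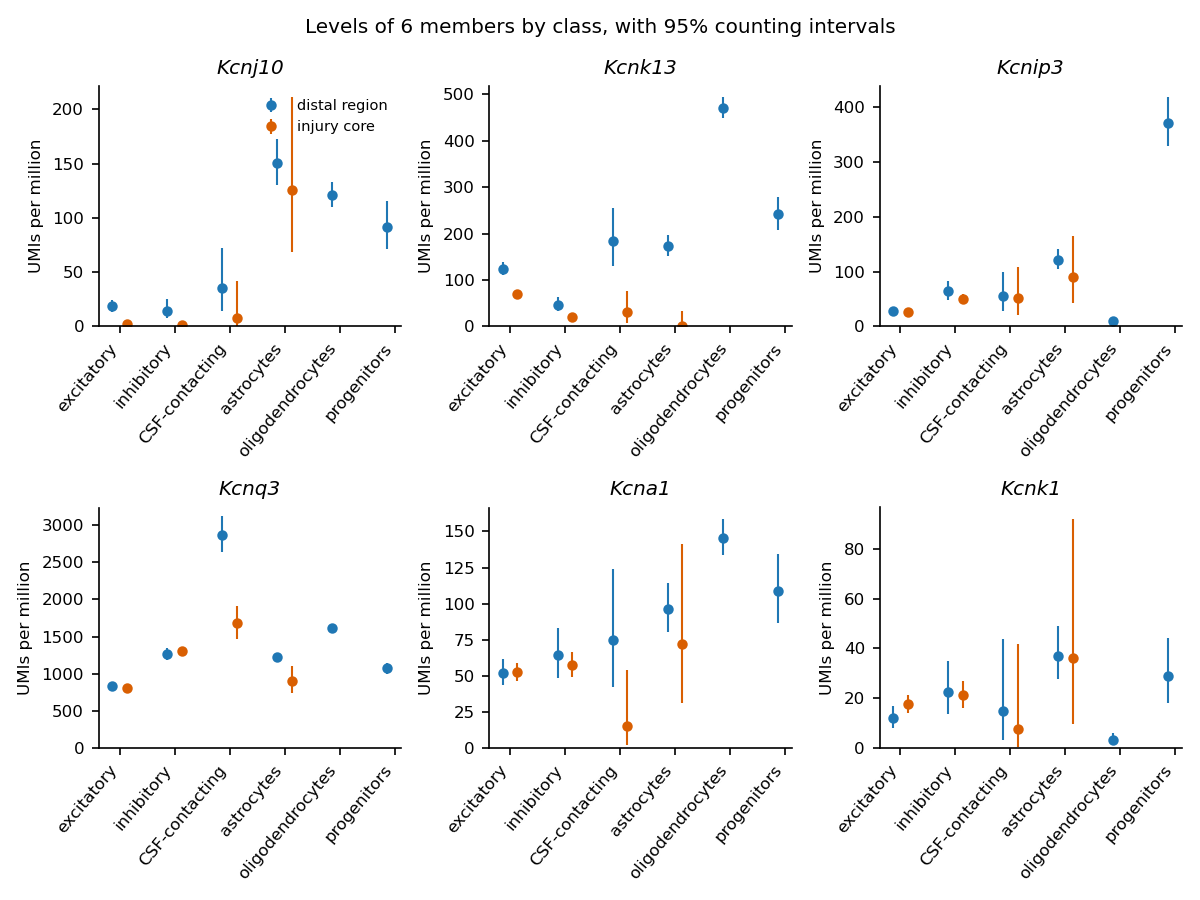
CPM (vertical axes, each starting at 0) of 6 members in each class, with blue points for the distal region, orange points for the injury core and bars for 95% counting intervals. In the distal library Kcnj10 is high in all glia, Kcnk13 peaks in oligodendrocytes at 470.3, Kcnip3 in progenitors at 371, and Kcnq3 in CSF-contacting neurons at 2875; core oligodendrocytes and progenitors are not plotted.

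The last comparison sets the injury core against the distal region within a neuron class. In excitatory neurons 9 of 52 members were higher in the core (7.55% of all genes) and 4 lower (11.7%). In inhibitory neurons 5 of 44 were higher (4.98%) and 1 lower (7.5%), and over all neurons 3 of 66 were higher (5.64%) and 7 lower (14.1%). Median log2 ratios of the members were 0.07, 0.06 and 0.09, beside -0.02, 0.00 and -0.05 over all genes. The libraries also differ in cord level: Hoxd11, a gene of the caudal cord, had 397 UMIs in core neurons and 0 in distal neurons. Injury, cord level, dissection and library therefore cannot be told apart. Different clusters also made up the excitatory class, led by cluster 19 in the distal library (24.3% of the nuclei) and cluster 4 in the core (29.4%), while cluster 5 led the inhibitory class in both (49.7% and 42.7%). Unresolved neurons, which enter the counts over all neurons, lay mostly in cluster 13 in the distal library (87.2%) and in cluster 1 in the core (99.2%). Compared cluster by cluster, 4 members rather than 13 were called in excitatory neurons, Kcnh2 higher and Kcnj10, Kcnk13 and Kcnt2 lower, and with nuclei classed one by one 7 were called.

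Both neuron classes were higher in the core for Kcnab3 and Kcnab2, beta subunits of Kv1 channels, and for Kcnh2, an ERG gene. Kcnab3 was at 16.4 CPM in core and 8.49 in distal excitatory neurons and at 29.1 and 12.4 in inhibitory neurons, ratios of 1.93 (1.20 to 3.24) and 2.35 (1.25 to 4.87). Kcnh2 was at 29.7 and 16.2 in excitatory and 30.4 and 13.5 in inhibitory neurons, ratios of 1.83 (1.30 to 2.64) and 2.25 (1.23 to 4.51). Kcnab2 had ratios of 1.69 (1.36 to 2.12) and 1.61 (1.15 to 2.30), and over all neurons of 1.84 (1.63 to 2.09). With nuclei classed one by one Kcnh2 lost its call in both classes, at 1.67 in excitatory and 1.31 in inhibitory neurons, and Kcnab2 in inhibitory neurons, at 1.33. After thinning to 1000 UMIs per nucleus Kcnab3 (2.18), Kcnh2 (2.52) and Kcnab2 (1.10) were not called in inhibitory neurons, nor Kcnab3 in excitatory neurons. Compared cluster by cluster, Kcnab3 stood at 1.41 in excitatory neurons and was not called. These 3 were also the members higher over all neurons. The largest excitatory ratio was that of Kcnmb2, at 209.8 (198 to 222) in core and 84.5 (73.7 to 96.4) in distal neurons, a ratio of 2.48 (2.15 to 2.88) that was 1.54 one by one and 1.48, not called, cluster by cluster. In inhibitory neurons, where Kcnmb2 was higher in both libraries, its ratio was 1.16 (1.04 to 1.30). Kcnc4 at 1.78 (1.10 to 2.99), Kcnip1 at 1.75 (1.65 to 1.87) and Kcnb2 at 1.58 (1.49 to 1.68) were higher in core excitatory neurons as well, and Kcnk9, an acid-sensitive two-pore gene, was at 1.65 (1.27 to 2.18). One by one, Kcnc4 stood at 1.20 and Kcnip1 at 1.42, and neither was called. Inhibitory neurons were further higher in the core for Kcnt1 at 1.54 (1.33 to 1.79) and Kcnip2 at 1.51 (1.10 to 2.10), the latter not without its top nucleus (1.48, interval 1.08 to 2.06).

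Lower in the core was Kcnj10, at 0.119 (0.0577 to 0.228) in excitatory and 0.132 (0.0902 to 0.191) in all neurons, and Kcnk13, at 0.565 (0.486 to 0.658) in excitatory, 0.449 (0.298 to 0.683) in inhibitory and 0.390 (0.345 to 0.440) in all neurons. One by one the excitatory ratio of Kcnk13 was 0.363, and at Leiden resolution 0.5 it was 0.687 and not called. Both were higher in oligodendrocytes than in neurons, and the oligodendrocyte markers were at 0.127 of their own level in distal neurons and at 0.0180 in core neurons. The part of those nuclei's RNA in the Kcnk13 and Kcnj10 ratios was not tested. Kcnrg at 0.294 (0.174 to 0.499) and Kcnj13 at 0.469 (0.324 to 0.686) over all neurons were also among the genes higher in oligodendrocytes than in neurons. The other lower members were not: the sodium-activated Kcnt2 was at 0.547 (0.507 to 0.590) in excitatory and 0.588 (0.558 to 0.621) in all neurons, the G-protein-gated Kcnj3 at 0.655 (0.610 to 0.705) and 0.656 (0.626 to 0.687), and Kcnh8 at 0.638 (0.586 to 0.695) in all neurons. Their inhibitory ratios were 0.684 (0.608 to 0.771), 0.730 (0.654 to 0.816) and 0.853 (0.703 to 1.04), none of them called.

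**Figure D5:**
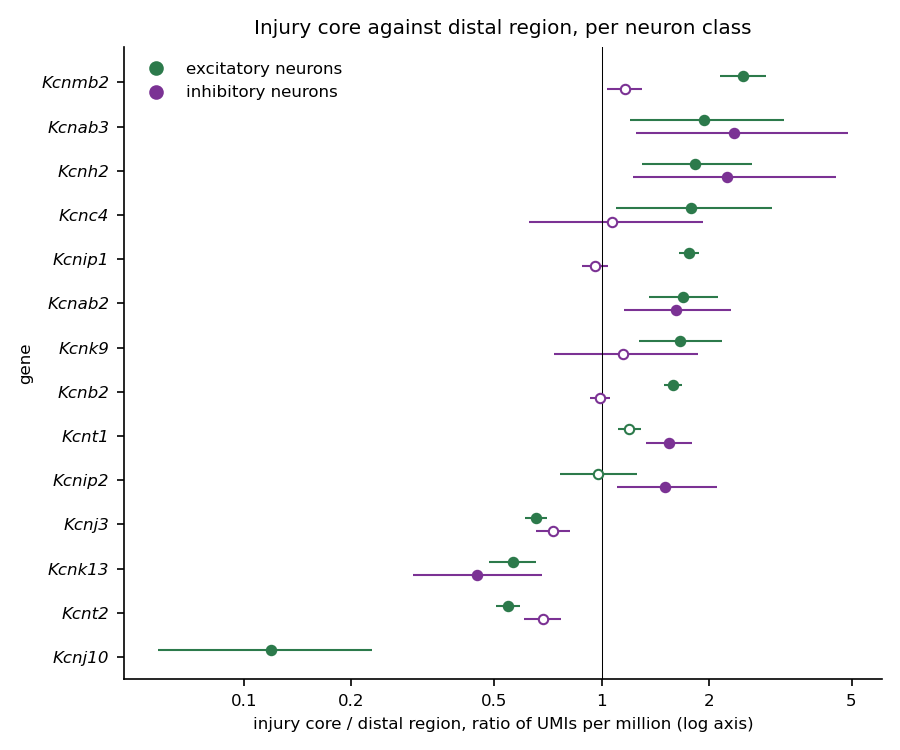
Injury core over distal region ratio of CPM (horizontal log axis) for members reported here that were called in either neuron class (rows), with green points for excitatory and purple points for inhibitory neurons; bars are 95% counting intervals, and filled points were called. Kcnj10 lies farthest left (excitatory neurons, 0.119), and Kcnab2, Kcnab3 and Kcnh2 have filled points to the right in both classes.

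A list of 24 genes that work with potassium channels (Kv4 partners Dpp6 and Dpp10, scaffolds, sodium pump subunits and Hcn channels) was counted in the same way, with the shares of all genes higher and lower in brackets. Between excitatory and inhibitory neurons, 1 of 16 was higher (Dpp10) and 1 lower (Abcc8) in the distal library (7.29% and 6.89%), and 2 of 20 were higher (Dpp10 and Atp1b2) and 1 lower in the core (5.13% and 4.24%). In distal CSF-contacting neurons 1 of 18 was higher and 6 lower (9.11% and 6.11%), among them Dpp6 and Dpp10, while 0 of 21 were called in the core (3.21% and 0.88%). Distal astrocytes were higher than neurons in 4 of 18 and lower in 10 (23.6% and 16.9%), oligodendrocytes higher in 3 and lower in 13 (24.5% and 27.4%), and progenitors higher in 3 and lower in 9 (15.5% and 17.1%). Cntn2, an adhesion gene of the juxtaparanode, was higher in all 3. In core astrocytes 3 of 21 were higher and 4 lower (6.89% and 2.78%). Core over distal, 2 of 18 were higher and 3 lower in excitatory neurons (7.55% and 11.7%), and 0 of 15 higher and 1 lower in inhibitory neurons (4.98% and 7.5%).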

How the data were processed

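Nuclear RNA was counted as UMIs per gene and nucleus in 1 injury core and 1 distal library of mouse spinal cord. The deposited files hold raw counts written by Cell Ranger 7.1.0, per the file headers (the submitters' processing notes also list mm10, GRCh38 and Seurat, with no role for any). The annotation and counting settings were not given in the sources used here. Every barcode had at least 500 UMIs before deposit. The members, gene lists and classes were chosen with earlier results of these data known, and the thresholds behind the class names were set with the data in view.

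Barcodes under 300 genes or over 5% mitochondrial UMIs were dropped (2 core, 9 distal). Scrublet marked 0 doublets in either library because its threshold exceeded every score. The caller had failed, and doublets remain. Clustering (Leiden, resolution 1.0) used log values per 10000 UMIs, 2000 variable genes and 40 components with 15 neighbours, leaving out Kcn, mitochondrial and sex-linked genes and Neurod1 (scanpy 1.11.5, leidenalg 0.10.2, Python 3.11.15). A cluster took the non-neuronal or CSF-contacting class with the highest marker score where that score passed a log2 limit of 1 (2 for CSF-contacting). All other clusters counted as neurons, whatever their neuron marker score. Background-like, blood-like and mixed clusters were left out, as were non-neuronal clusters without markers of their own among their 30 leading genes. The own-marker rule was not applied to neuron clusters. Excitatory, inhibitory and unresolved clusters had no general neuron marker among those 30 genes, though all 10 such markers were detected in each. Neuron clusters with over 40% excitatory transmitter UMIs were excitatory, and those with under 15% inhibitory.

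UMIs were summed per class and library and scaled to CPM, with exact Poisson intervals. Ratios have exact conditional 95% intervals (scipy 1.17.1). All intervals and floors (3 counts where none was seen) cover counting error only. Genes were named by a rule: the 6 highest members per class, up to 5 called per direction and comparison, and 28 textbook genes. Further members named in the text were chosen after their values were seen. GENCODE M21 gave positions for all 99 members and coding sequences for 94. Some genes and coding windows are not reported here. The code was tested on simulated counts. The alternatives were other resolutions, nuclei classed one by one, stricter filters, thinning, scaling, count minimum, fold, interval and like clusters compared. The rule for one-by-one classes was revised 2 times after its class and call counts were seen.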

Additional observations from a re-analysis of the deposited data

How the results depend on the processing

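Counts of members called that moved by over 1.5 times are given with the main count. Excitatory against inhibitory neurons gave 15 calls in the distal library and 7 with nuclei classed one by one or with a fold of 2; the core gave 13, with 3 and 6 under these settings. CSF-contacting neurons of the core gave 7, with 4 after thinning to 1000 UMIs per nucleus and 32 on fold alone. Core astrocytes against neurons gave 16, with 6 classed one by one, 9 thinned, 9 at a fold of 2 and 43 on fold alone. Astrocytes against oligodendrocytes gave 29, with 18 thinned. Core over distal gave 13 in excitatory neurons, with 7 classed one by one, 2 at a fold of 2 and 4 with like clusters compared; 6 in inhibitory neurons, with 3 at a fold of 2; and 10 in all neurons, with 16 thinned and 4 at a fold of 2. The cause was not tested.

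Of the named ratios over these alternatives, 788 kept direction and call, 109 kept direction and lost the call, and 3 changed direction: Kcnab3 in excitatory over inhibitory core neurons (1.01 one by one), Kcnk13 in distal astrocytes over neurons (0.922 at resolution 2.0) and Kcnc1 in core astrocytes over neurons (1.04 one by one). Leaving out unresolved neurons, an alternative added after seeing the data, lost 12 of 65 calls. No paired analysis was possible because each region has 1 library. The comparisons planned for core oligodendrocytes and progenitors were not run, as 10 and 18 nuclei were too few. In CSF-contacting and core glial nuclei, depth limits what could be called.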

Other observations

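Outside the classes above, fibroblast-like nuclei were high in Kcnk2, a stretch- and lipid-sensitive two-pore gene. It was at 451 CPM (156 of 432 nuclei) in the distal library, 7.33 (6.32 to 8.49) times the level of all other named classes, and at 509 CPM (38 of 113 nuclei) in the core, 6.40 (4.98 to 8.11) times. Fibroblasts were high in both libraries. Kcnk5, an alkali-activated two-pore gene, was at 29.8 CPM (14 of 432 nuclei) in distal and 49.5 CPM (7 of 113 nuclei) in core fibroblasts, where all other core classes together had 7 UMIs.

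Endothelial nuclei had Kcnq1, the pore gene of a cardiac and epithelial channel, at 49.6 CPM (6 of 89 nuclei) in the distal and 59.0 CPM (4 of 57 nuclei) in the core library, 10.8 (3.81 to 25.0) and 13.3 (4.76 to 30.1) times the other classes. Distal myeloid nuclei were higher in Kcnk6 at 16.6 (7.13 to 36.7) times the other classes, in Kcnrg at 3.92 (2.29 to 6.35), in Kcnj2 at 3.27 (1.44 to 6.52) and in Kcnk12 at 2.51 (1.34 to 4.33). Kcnk13, known from microglia, was at 256 (209.8 to 309) CPM in distal myeloid nuclei, below the 470.3 (448 to 493) of oligodendrocytes. These genes rest on few UMIs, and their counts were looked at after the data had been seen.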
